A study of Homo sapiens with 5 samples.

Results

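The genes described here are DKK1, which encodes a secreted inhibitor of WNT signalling, and 9 genes that report on or carry out that signalling: AXIN2, NKD1, RNF43, ZNRF3, LGR5, ASCL2, MYC, TCF7 and CTNNB1. They are 10 of the 26364 gene symbols in the deposited count files. DKK1 was chosen by its measured level, which stood out in these libraries above all between tryptophan/niacin-free and normal food, so every DKK1 value below is a description and carries no test. The 9 others were taken by name as WNT pathway genes, to see whether DKK1 moved with or against them. All but CTNNB1, which encodes the effector protein of the pathway, are known as its target genes.

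The tumours grew from HT-29, an established human colon cancer cell line, implanted under the skin of female NOD SCID mice of 5 weeks, which lack T and B cells. Messenger RNA was sequenced in 5 tumour libraries after 2 weeks on 1 of 4 foods: normal food (1 library), food lacking methionine (2 libraries), food lacking tryptophan and niacin (1 library), and food lacking methionine, tryptophan and niacin, called the combined omission (1 library). All mice received the same cell line, and food is the only treatment that the labels vary. Every food but the methionine-free one has 1 library, so food cannot be told apart there from the tumour sequenced. Titles also differ in style between foods, as given below. The line itself is a single line grown in a host without adaptive immunity. Whether the pair of methionine-free libraries stems from different animals is not stated. The p-values rest on the spread of those libraries alone, and that spread may be technical. In edgeR it was pooled over genes.

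In WNT signalling a WNT ligand binds a Frizzled receptor and the co-receptor LRP5 or LRP6, the destruction complex of APC, AXIN and the kinases GSK3 and CK1 is held back, and beta-catenin enters the nucleus to act with TCF/LEF factors. The target genes include inhibitors that feed back on the pathway, and DKK1 is both such a target and an inhibitor that binds LRP5 and LRP6 outside the cell. In the colon the pathway maintains the stem cells at the crypt base. HT-29 cells carry truncating mutations of APC, a state in which beta-catenin is poorly degraded even without ligand.

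The promoter of DKK1 is shown because it holds the letters that TCF/LEF factors are known to bind. RefSeq promoter windows (GRCh38.p14, not the hg19 build that the submitters' processing notes name) were found for 4 of the 10 genes, DKK1, RNF43, TCF7 and CTNNB1. The 250 bases before the transcription start of DKK1 on the plus strand, chr10:52314031-52314280, read 5′ to 3′ as follows, with the TCF/LEF letters in capitals.
DKK1: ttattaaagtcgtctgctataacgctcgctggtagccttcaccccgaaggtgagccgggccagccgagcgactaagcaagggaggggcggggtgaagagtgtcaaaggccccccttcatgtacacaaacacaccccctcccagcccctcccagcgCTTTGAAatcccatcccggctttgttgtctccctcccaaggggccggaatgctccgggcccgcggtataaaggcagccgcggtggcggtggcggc
The motifs searched were CTTTGAT and CTTTGAA on both strands, which do not overlap each other. DKK1 held 1 match, CTTTGAA on the given strand, starting 95 bases before the start site. The windows of RNF43, TCF7 and CTNNB1 held none, and 5.94% of all 35116 promoter windows of that length held at least 1. A match describes the letters only.

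Library totals lay between 433930 and 1088084 counts. A single count was worth 0.927 to 2.31 CPM (the read count scaled to library size, here with TMM factors), and the intervals given with levels are 95% exact Poisson intervals that cover counting error only. All 10 colon epithelial markers were detected in all 5 libraries, with a summed level of 12800 to 15800 CPM. Of the 6 fibroblast markers 4 were at 0 throughout (COL1A2, COL3A1, DCN and PDGFRA), as were 3 of 4 endothelial markers (CDH5, VWF and KDR) and the leukocyte marker PTPRC. The summed level of the fibroblast list was 15.8 to 18.3 CPM, with COL1A1 detected in all 5 libraries (7 to 11 counts). The leukocyte list summed to 2060 to 3780 CPM, nearly all of it LYZ, which epithelial cells also make. The 5 skeletal muscle markers summed to 67 CPM in the tryptophan/niacin-free library and to at most 1.83 CPM in any other. That sum came from the myosin genes MYH1, MYH2 and MYH4 (22.3, 23.9 and 19.2 CPM), while ACTA1 was at 1.6 CPM there, with 1 count, and CKM was at 0 in all 5 libraries. In methionine-free replicate 2, genes with short transcripts leaned up and genes with long transcripts down: against the normal library the median log2 difference was 0.49 among the genes of shortest transcripts (median 1806 bases) and −0.44 among those of longest (median 7182 bases). In the tryptophan/niacin-free library these medians were −0.01 and −0.02, and in the combined omission −0.02 and −0.01. Titles are of 2 styles, a shorter one for normal food and the combined omission and a longer one for the other 3 libraries, so that any difference in handling that goes with the style cannot be told apart from food in a comparison across styles.

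DKK1 was the member whose level differed most between libraries. It stood at 55.6 CPM on normal food (interval 42.4 to 71.6), at 133 (105 to 168) and 134 CPM (107 to 167) in methionine-free replicates 1 and 2, at 201 CPM (168 to 239) in the tryptophan/niacin-free library and at 76.3 CPM (52.6 to 107) in the combined omission. The 2 methionine-free libraries were nearly equal, at 134 ± 0.651 CPM (SD, n = 2). The 3 libraries of a single omission were thus high and the libraries of normal food and of the combined omission were low. Between neighbours in this order, the counting intervals of normal food and the combined omission overlapped, as did narrowly those of the combined omission and replicate 1. The interval of replicate 2 ended just below that of the tryptophan/niacin-free library, and that of replicate 1 overlapped it by a little. In a bulk tumour, more cells that express a gene and more RNA per cell cannot be told apart.

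The folds given here carry a prior count of 2, which draws them towards 1, and the intervals are of count ratios without it. DKK1 in the tryptophan/niacin-free library was 3.48 times its level on normal food (126 counts against 60). It had a count ratio between 2.64 and 5 (95% interval, exact conditional binomial). In methionine-free replicate 1 it was 2.33 times (1.68 to 3.43) and in replicate 2 2.34 times (1.71 to 3.42) the normal level. The combined omission gave 1.35 times (0.869 to 2.13, 33 counts against 60), an interval that includes 1. Against the tryptophan/niacin-free library the combined omission was 1.78-fold to 3.99-fold lower (log2 difference −1.36). A size rule was used between lone libraries in place of a test: at least 2-fold in TMM-scaled CPM and an interval that excludes 1. DKK1 lay beyond it in all of these comparisons but that of the combined omission with normal food. The rule was met in the higher direction by 1.01% of 10005 genes between tryptophan/niacin-free and normal food, and by 0.94% and 4.89% for methionine-free replicates 1 and 2 against normal food (2.99% and 13.6% in either direction). In the lower direction it was met by 1.73% of genes between the combined omission and the tryptophan/niacin-free library. Because DKK1 was picked for this pattern, nothing is read from those shares. For scale, 6.6% of genes met the rule in either direction between the 2 methionine-free replicates, where DKK1 differed by a log2 value of 0.01.

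Within a title style, DKK1 differed less than across styles. The log2 difference was 0.44 between the combined omission and normal food, both of the shorter style, and 0.59 between tryptophan/niacin-free and methionine-free food, both of the longer style. Both shorter-style libraries lay below all 3 longer-style libraries for DKK1, a pattern shown by 13.9% of the 10005 genes, and the reverse order was shown by 15.4%. Of the 5 skeletal muscle markers, the 3 myosin genes had their highest level in the tryptophan/niacin-free library, where DKK1 was highest, and ACTA1 and CKM did not stand out there. The list summed to 1.83 and 1.62 CPM in the methionine-free libraries, where DKK1 was at 133 and 134 CPM. The part of muscle RNA in the DKK1 levels was not tested. With transcript length corrected the log2 difference of DKK1 (longest transcript 1790 bases) was 1.00 between methionine-free and normal food and 1.82 between tryptophan/niacin-free and normal food.

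**Figure D1:**
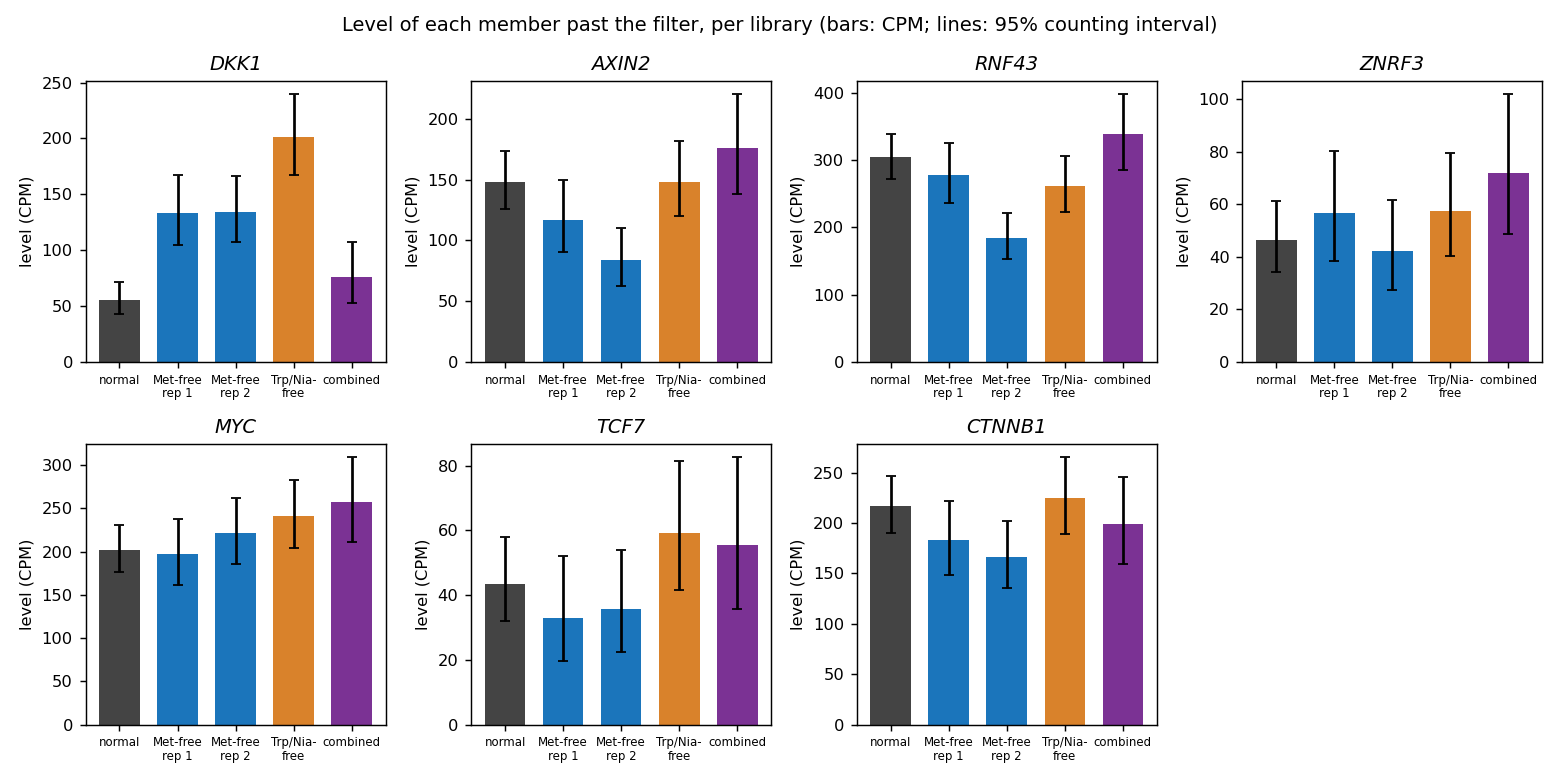
Level in CPM (y axis) of each of the 7 members past the low-count filter in the 5 libraries (x axis; Met-free is methionine-free, Trp/Nia-free is tryptophan/niacin-free), with bars for the level and lines for the 95% exact Poisson counting interval. DKK1 runs from 55.6 to 201 CPM, while MYC stays between 197 and 257 CPM.

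Of the 9 other members, 6 passed a filter on low counts and 3 did not. LGR5, the receptor for R-spondins that marks intestinal stem cells, had 9 counts over all 5 libraries, and ASCL2, a transcription factor of those stem cells, also had 9. NKD1, an inhibitor that binds Dishevelled, had 17, between 0 in the tryptophan/niacin-free library and 9.25 CPM in the combined omission. The 0 was read as anything up to 4.79 CPM, the worth of 3 counts there, and its Poisson interval reached 5.89 CPM. No difference between libraries was detectable at this depth for these 3 genes. In the main settings they enter no test, no count of genes and no median below. Their counts are included only in the ratio to the sum of all 9 other members and in the alternative without a filter.

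AXIN2, a scaffold of the destruction complex and a widely used WNT target, did not share the order of DKK1. It stood at 148 CPM on normal food, 117 and 84.1 CPM in methionine-free replicates 1 and 2, 148 CPM in the tryptophan/niacin-free library and 176 CPM in the combined omission. The methionine-free libraries were thus its lowest and the combined omission its highest. In edgeR's quasi-likelihood test, fitted to all 5 libraries with 1 mean per food and Benjamini-Hochberg adjustment over 10005 genes, methionine-free against normal food had a log2 fold change of −0.56 (SE 0.414, adjusted p = 0.814, lower in 2 of 2 libraries). The combined omission against methionine-free food had one of 0.81 (SE 0.431, adjusted p = 0.677, above both replicates).

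The ubiquitin ligases RNF43 and ZNRF3, targets that remove Frizzled receptors from the cell surface, did not show the order of DKK1 either. For ZNRF3 the counting intervals overlapped between every pair of libraries, so its order is uncertain. RNF43 was at 304 CPM on normal food, 278 and 184 CPM without methionine, 262 CPM in the tryptophan/niacin-free library and 338 CPM in the combined omission. Its counts were not whole in 4 of 5 libraries, so its level is less certain, and of the other 6 members past the filter it was the only one whose shorter-style libraries both lay above all longer-style ones. ZNRF3 was at 46.3, 56.6, 42.1, 57.5 and 71.7 CPM in the same order of libraries, from 26 to 50 counts. For methionine-free against normal food the log2 fold change was −0.40 for RNF43 (SE 0.435, adjusted p = 0.893) and 0.08 for ZNRF3 (SE 0.442, adjusted p = 0.988). In methionine-free replicate 2 RNF43 was 1.17-fold to 1.94-fold below replicate 1. The transcripts of AXIN2, RNF43 and ZNRF3 are longer (4259, 5575 and 6851 bases) than that of DKK1, and replicate 2 is the library in which long transcripts leaned down. The part of length in their low values there was not tested.

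Among the transcription factors, MYC, a driver of growth and proliferation, was the steadiest member. It stood at 202 CPM on normal food, 197 and 222 CPM without methionine, 241 CPM in the tryptophan/niacin-free library and 257 CPM in the combined omission, 1.3 times from lowest to highest. TCF7, a TCF/LEF factor that is itself a target, stood at 43.6, 32.9, 35.6, 59 and 55.5 CPM in that order, from 18 to 47 counts, with overlapping counting intervals throughout. Its largest fitted difference was 0.78 for tryptophan/niacin-free against methionine-free food (SE 0.471, adjusted p = 0.992). CTNNB1, which encodes beta-catenin, stood at 217, 183, 167, 225 and 199 CPM. Its intervals, like those of MYC and ZNRF3, overlapped between every pair of libraries, and its log2 fold change for methionine-free against normal food was −0.31 (SE 0.423, adjusted p = 0.92).

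Set against each other within a library, where scaling plays no part, DKK1 gained on the other members in the libraries of a single omission. Per 100 counts of AXIN2 there were 37.5 counts of DKK1 on normal food (95% exact binomial interval 27.4 to 50.8) and 43.4 in the combined omission (27.9 to 66.1). The methionine-free libraries had 114 (80.4 to 162) and 160 (112 to 230), and the tryptophan/niacin-free library had 135 (103 to 179). The intervals of the first 2 libraries did not overlap those of the last 3. Against the sum of all 9 other members the picture was alike: 5.71 (4.33 to 7.42) and 6.88 (4.68 to 9.79) per 100 counts on normal food and in the combined omission, against 15.3 (11.8 to 19.6), 18.1 (14.1 to 22.9) and 20.1 (16.4 to 24.3). These ratios contain the DKK1 counts that led to its choice and are a description. They are not corrected for transcript length, and DKK1 (1790 bases) is shorter than AXIN2 (4259 bases). In methionine-free replicate 2 short transcripts leaned up and long ones down. The part of length in the ratios was not tested.

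**Figure D2:**
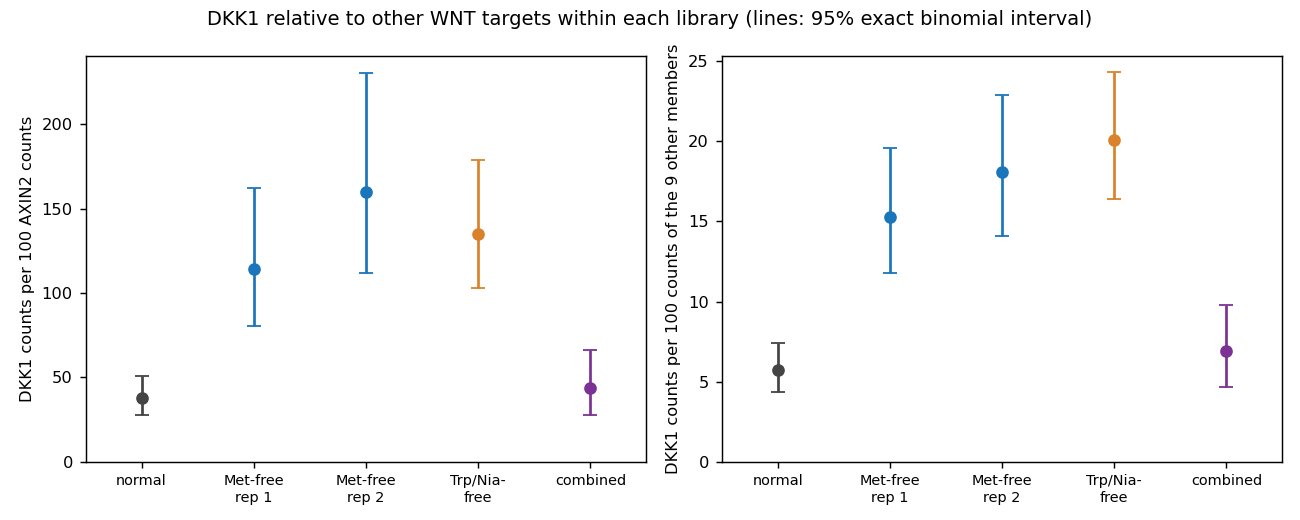
DKK1 counts per 100 counts of AXIN2 (left, y axis) and per 100 counts of the 9 other members together (right, y axis) in each library (x axis; Met-free is methionine-free, Trp/Nia-free is tryptophan/niacin-free), points with 95% exact binomial intervals. Normal food (37.5 and 5.71) and the combined omission (43.4 and 6.88) sit below the 3 libraries of a single omission in both panels.

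Whether DKK1 moved with or against the other members depended on the comparison. In methionine-free against normal food DKK1 lay above (fitted log2 fold change 1.26) and 4 of the 6 others below, with a median of −0.33 against 0.00 over all genes. That median was −0.19 with transcript length corrected and, as a plain difference from normal food, −0.19 in replicate 1 and −0.32 in replicate 2. MYC and ZNRF3, the 2 above 0, were at 0.05 and 0.08, and MYC changed sign to −0.02 with scaling by library totals and to −0.10 with transcript length corrected. In the combined omission against methionine-free food the positions were exchanged, with DKK1 below 0 (−0.81) and 6 of 6 others above. These 6 ran from 0.19 for CTNNB1 to 0.81 for AXIN2, with a median of 0.55 against −0.02 over all genes. With transcript length corrected the median of the 6 was 0.39. In tryptophan/niacin-free against methionine-free food DKK1 (0.59) and 6 of 6 others (median 0.30) lay above 0 together, RNF43 only with replicate 2 included (0.18, and −0.08 without it). The library without tryptophan and niacin and that of the combined omission each lay above normal food for 5 of the 6 others, with medians of 0.15 and 0.29, on the same side as DKK1, although AXIN2 in the tryptophan/niacin-free library was at 0.00. These comparisons share libraries, so they are not independent of one another.

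**Figure D3:**
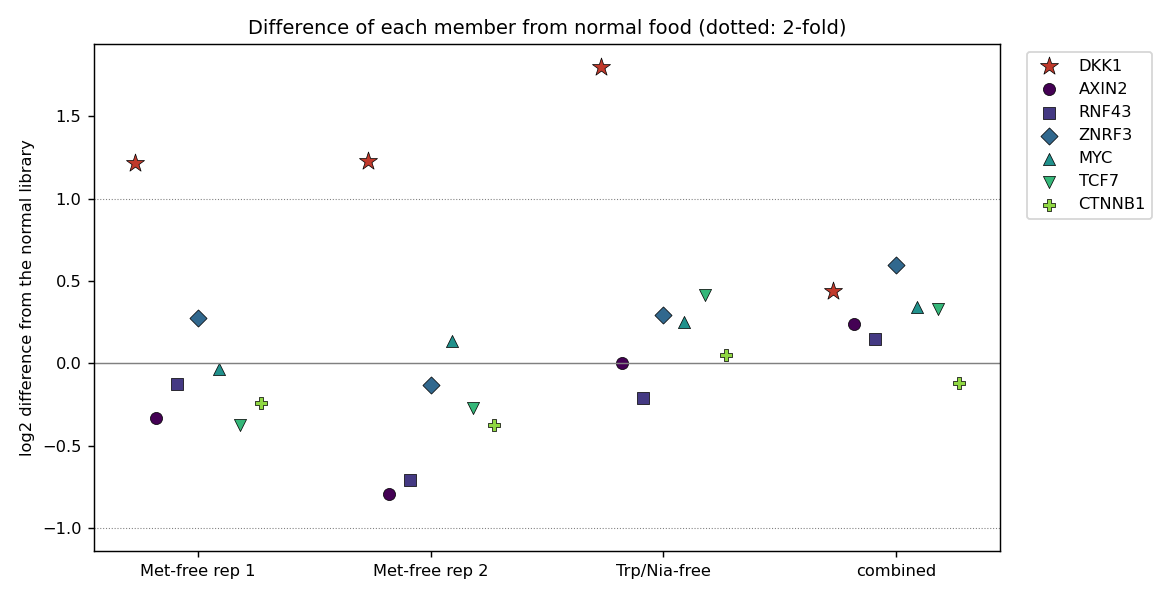
TMM-scaled log2 CPM difference from the normal library (y axis) of the 7 members past the filter in each of the other 4 libraries (x axis; Met-free is methionine-free, Trp/Nia-free is tryptophan/niacin-free), 1 symbol per gene, dotted lines at 2-fold. DKK1 (star) is at 1.22, 1.23, 1.80 and 0.44, and the other members lie between −0.80 and 0.60.

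None of the 6 other members passed edgeR's adjusted threshold of 0.05 in any of the 5 tested contrasts, and 0 of 6 were below it at an unadjusted p. The contrasts were methionine-free against normal, the combined omission and tryptophan/niacin-free food each against methionine-free, and each omission's effect as a mean over both states of the other omission. The share of all 10005 genes called was 0.23% for the first, 0.03% for the second and 0 for the 3 others, in a fit with 1 residual degree of freedom. At an unadjusted p the shares of all genes were 7.68%, 7.57%, 4.91%, 2.31% (methionine omission averaged) and 2.63% (tryptophan/niacin omission averaged). DESeq2 and limma-voom also called 0 of the 6. At an unadjusted p DESeq2 had 0 of 6, where it had only 39, 37, 31, 4 and 6 of all 10005 genes in these contrasts. In the combined omission against methionine-free food limma-voom had 1 of 6, where it had 735 of all 10005 genes, and the fit with transcript length corrected had 1 of 6, where it had 811. Averaged over both methionine states, leaving out tryptophan and niacin had a log2 value of 0.52 for DKK1 and a median of 0.34 for the 6 others, all above 0, against −0.02 over all genes. Averaged over both tryptophan/niacin states, leaving out methionine had −0.07 for DKK1 and −0.09 for the 6. In these averages both title styles have equal weight.

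A further 101 genes of the pathway, listed by role, included 45 past the filter. Of the 18 WNT ligands 7 were at 0 in every library, and 3 passed the filter, WNT7B, WNT10A and WNT11. All 4 R-spondins, which strengthen the signal through LGR receptors, were at 0. Of the secreted inhibitors other than DKK1 and of their partners, 8 of 15 were at 0 throughout and 2 passed the filter. The levels that could be followed were therefore mainly those of receptors (9 of 18), the destruction complex and Dishevelled (12 of 13), nuclear partners (6 of 11) and other intestinal targets (12 of 20).

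None of these 45 genes passed edgeR's adjusted threshold in any tested contrast, nor by DESeq2 or limma-voom. In methionine-free against normal food 16 of 45 lay above 0 (median log2 −0.23, 50.3% of all genes above 0). At an unadjusted p below 0.05 edgeR had 1 of the 45, TNKS, where it had 7.68% of all genes. With library totals the number stayed at 1. DESeq2 (39 of all 10005 genes), limma-voom (759) and the length-corrected fit (807) each had 0 of the 45. TNKS, which encodes the AXIN-destabilising enzyme tankyrase, had a log2 fold change of −1.14 (SE 0.575, adjusted p = 0.641) and stood at 30.6 CPM on normal food and 18.3 and 9.71 CPM without methionine. Receptors lay below 0 in 8 of 9 cases (median −0.28). With transcript length corrected the median over the 45 genes was −0.04, and 21 lay above 0. In the combined omission against methionine-free food 30 of 45 lay above 0 (median 0.22; 48.8% of all genes), or 27 with a median of 0.14 with transcript length corrected. The 30 included 6 of 6 nuclear partners (median 0.54) and 10 of 12 other targets (median 0.42), while the 3 ligands lay below (median −0.66). In that contrast 0 of 45 were at an unadjusted p below 0.05 by edgeR in the main setting. With library totals 2 of the 45 were, where 750 of all 10005 genes were. DESeq2 (37 of all genes), limma-voom (735) and the length-corrected fit (811) each had 0 of the 45.

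**Figure D4:**
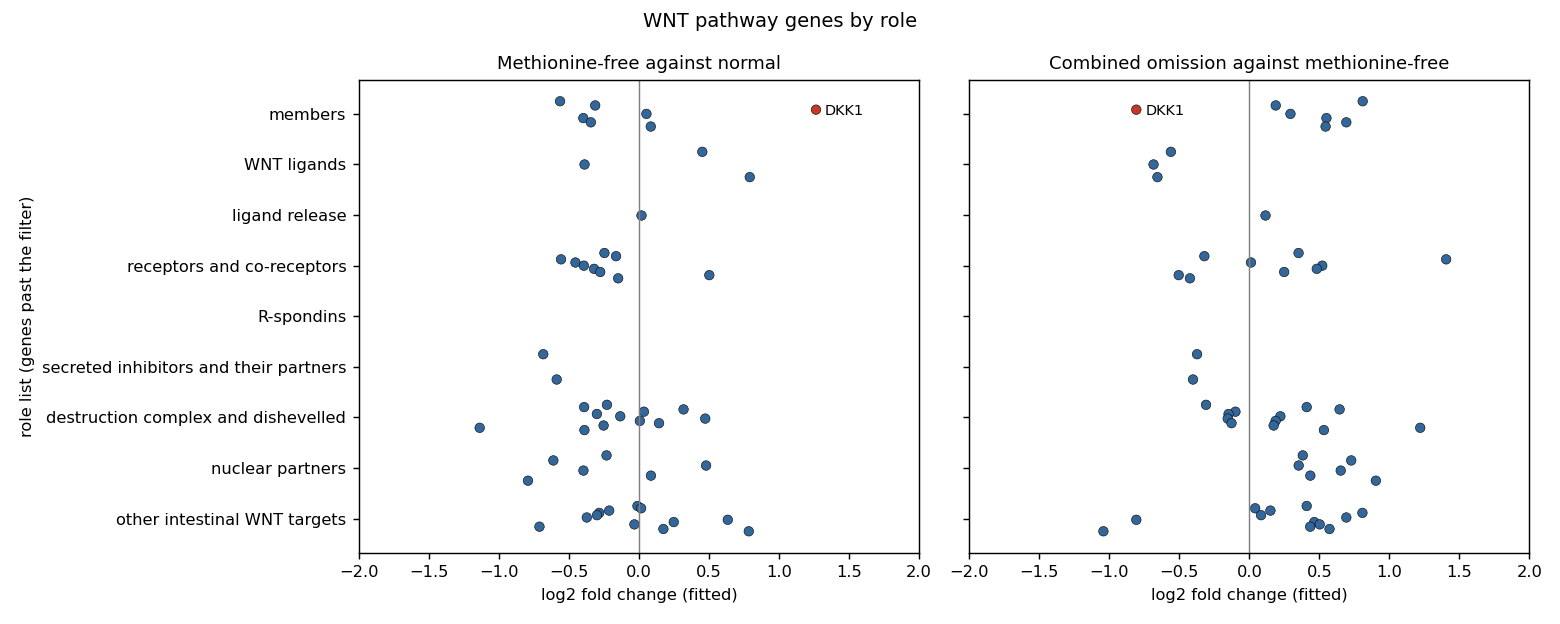
Fitted log2 fold change (x axis) of each WNT pathway gene past the filter, by role (y axis), for methionine-free against normal food (left) and the combined omission against methionine-free food (right); each point is a gene and DKK1 is red. DKK1 is at 1.26 and −0.81, on the other side of 0 from 4 of 6 and 6 of 6 other members in the top row.

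A few pathway genes were below an unadjusted p of 0.05 by edgeR or beyond the size rule. BCL9, WNT11 and PHLDA1 were each the only 1 of the 45 below it in the contrast given here. The shares of all genes below it there were 4.91%, 2.31% and 2.63%. In the same contrasts DESeq2 had 0 of the 45, where it had 31, 4 and 6 of all genes, and limma-voom had 1 each time. BCL9, a co-activator that binds beta-catenin, was at 76.6 CPM in the tryptophan/niacin-free library against 47.5 and 24.3 CPM in the methionine-free ones, 41.7 CPM on normal food and 46.3 CPM in the combined omission. Its log2 fold change in tryptophan/niacin-free against methionine-free food was 1.11 (SE 0.453, adjusted p = 0.992 by edgeR), below 0.05 before adjustment. WNT11, a ligand known mainly for signalling apart from beta-catenin, was at 53.8 CPM on normal food, 34.7 and 46.9 CPM without methionine, 71.8 CPM in the tryptophan/niacin-free library and 25.5 CPM in the combined omission. Like DKK1 it was highest in the tryptophan/niacin-free library, but its methionine-free libraries lay below normal food. Its effect of leaving out methionine, averaged, was −0.94 (SE 0.375, adjusted p = 1 by edgeR), below 0.05 before adjustment. PHLDA1, a crypt-base target, was below it for tryptophan/niacin omission averaged, at 0.71 (SE 0.322, adjusted p = 0.999 by edgeR). It stood at 62.1 CPM on normal food, 73.1 and 74.4 CPM without methionine, 121 CPM in the tryptophan/niacin-free library and 102 CPM in the combined omission. By the size rule 2 of these 45 genes differed between the combined omission and the tryptophan/niacin-free library, where 4.04% of all genes did: WNT11 was lower (log2 difference −1.39, 1.44-fold to 6.05-fold) and EPHB3 higher (1.13, 1.44-fold to 3.58-fold). EPHB3, an ephrin receptor that positions cells in the crypt and is a WNT target, was at 54.3 CPM in the tryptophan/niacin-free library and 123 CPM in the combined omission, opposite to DKK1. No gene of the 45 met the rule between either of these libraries and normal food (WNT11 did in the combined omission with a prior count of 0.5, without a filter or with length corrected), where 3.52% (tryptophan/niacin-free) and 2.02% (combined omission) of all genes did. LRP6, the co-receptor that DKK1 binds, met it between the methionine-free replicates, at 74.9 CPM in replicate 1 and 25.9 CPM in replicate 2 (1.59-fold to 5.52-fold lower), but not with transcript length corrected. Against normal food replicate 2 was beyond the rule for LRP6, TNKS and BCL9L, a relative of BCL9, with log2 differences of −1.17, −1.40 and −1.03. These are 3 of 45 genes, in a comparison where 13.6% of all genes were beyond it. The other co-receptor, LRP5, stood at 407 CPM on normal food, 371 and 249 CPM without methionine, 330 CPM in the tryptophan/niacin-free library and 444 CPM in the combined omission.

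Some pathway genes shared the split by title style that DKK1 showed. Of the 45, 5 were lower in both shorter-style libraries than in all longer-style ones: WNT7B, WNT10A, the receptor ROR1 and the targets SP5 and MMP7. The reverse order was seen in 9: FZD5, LRP5, PTK7, TNKS, TCF7L2, EPHB3, SOX4, RGMB and LRIG1. Over all genes these patterns held for 13.9% and 15.4%. WNT7B, picked out after its values were seen, was at 23.2 CPM on normal food, 36.5 and 43.7 CPM without methionine, 44.7 CPM in the tryptophan/niacin-free library and 25.5 CPM in the combined omission, the same order of libraries as DKK1. MMP7, a matrix protease picked out in the same way, was at 285, 345, 537, 464 and 252 CPM in that order, with its short transcript (1323 bases) highest in replicate 2.

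The 5 genes whose pattern over the 5 libraries was most like that of DKK1 came from outside these lists. The lists hold few of the 8403 genes searched, so nothing about WNT genes is read from that. Likeness was the root mean square difference of log2 CPM after each gene was centred on its own mean, over 8403 genes with a mean of at least 20 CPM. The nearest were KIAA1279 (0.17), TMEM184C (0.20), SLC25A4 (0.21), WDR44 (0.23) and PHTF2 (0.25). KIAA1279 was at 16.7 CPM on normal food, 32.9 and 38.8 CPM without methionine, 47.9 CPM in the tryptophan/niacin-free library and 23.1 CPM in the combined omission. Of the 6 other members MYC was the nearest, at 0.63 (rank 2856 of 8403), and AXIN2 the farthest, at 0.84 (rank 6868). The measure was not scaled to each gene's spread, so a steady gene such as MYC can lie nearer than one that moved the opposite way. It uses the DKK1 levels that led to the choice of DKK1. Some levels rest on few counts, at 2.31 CPM per count in the combined omission. With 5 libraries such likeness is a description only.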

How the data were processed

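For each library the authors deposited expected counts (estimated counts) by gene symbol, not scaled to depth, of which 15.2% to 17.6% of positive values are not whole. The submitters' processing notes name hg19 and these tools: featureCounts, Subread 2.0.0, SAMtools 0.1.18, Bowtie2 2.2.8, TopHat2 2.1.1. The libraries were stranded mRNA libraries per the labels' protocols. The sources used here do not give the annotation, strand setting or treatment of mouse reads, so mouse RNA could be counted under human symbols.

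Counts were rounded. filterByExpr kept 10005 genes and removed 16359. CPM used totals of kept genes with TMM factors (0.926 to 1.04), and intervals of count ratios used the same scaled totals. The quasi-likelihood fit was made in R 4.3.3 (edgeR 4.0.16; limma 3.58.1), with 1 mean per food. Its biological coefficient of variation was 0.207, and the methionine-free pair gave the 1 residual degree of freedom, so that lone libraries were assumed to vary alike. The fitted prior degrees of freedom were infinite, so each gene took the spread shared over genes rather than its own. Lone libraries were compared by the size rule with a prior count of 2. The fit was tested on simulated counts. Alternatives were DESeq2 1.42.0, limma-voom, library totals, no filter, a prior count of 0.5, a loess correction for transcript length (longest GENCODE transcript, known for 95.8% of kept genes) and leaving out each methionine-free library. The single methionine-free libraries were set against normal food after seeing the data.

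Members, lists and tests were chosen with earlier results of these data known. Named genes were all members, listed pathway genes past a threshold or, per lone comparison, up to 3 beyond the size rule each way, and the 5 genes nearest to DKK1. Others are said to be picked afterwards.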

Additional observations from a re-analysis of the deposited data

Results flagged for a closer look

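Among the genes whose levels or differences are given above, 11 went one way on leaving out methionine with tryptophan and niacin in the food and the opposite way without them. The difference between the effects was not tested, since it coincides with title style and cannot be told apart from it. Of all 10005 genes 41.6% showed such opposite moves, and of the 7 members past the filter 3 did. WNT11, BCL9 and LRP6 were also checked and did not. The genes checked besides the members were mostly named for their values in these libraries, so the 11 are not set against that share. DKK1 was above normal food in both methionine-free libraries (log2 differences 1.22 and 1.23) and below the tryptophan/niacin-free library in the combined omission (−1.36). The same direction was seen in WNT7B (0.59 and 0.83, then −0.74), MMP7 (0.28 and 0.91, then −0.87), PHLDA1 (0.22 and 0.25, then −0.25) and KIAA1279 (0.87 and 1.09, then −0.96), the last of which was named for its likeness to DKK1. AXIN2 moved the other way round (−0.34 and −0.80, then 0.24), as did RNF43 (−0.13 and −0.71, then 0.36) and EPHB3 (−0.48 and −0.10, then 1.13). So did TNKS (−0.66 and −1.40, then 0.39), LRP5 (−0.13 and −0.70, then 0.42) and BCL9L (−0.27 and −1.03, then 0.03).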

How the results depend on the processing

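The alternatives gave 100 values for the DKK1 differences and the counts of WNT genes called. Of these, 96 were classed as the same, 4 as moved and 0 as reversed. The log2 difference of DKK1 kept its sign under every alternative in all comparisons between foods, and between methionine-free and normal food it ran from 1.00 with length corrected to 1.27, at 1.26 to 1.27 without 1 of the replicates. Between the replicates it was 0.01, −0.11 with library totals and −0.28 with length corrected. These changes of sign were not classed as reversed, so a value classed as the same need not have kept its direction. The count ratio of DKK1 between the replicates had an interval of 0.726 to 1.4, which includes 1. The number of listed genes beyond the size rule between the combined omission and normal food was 0, but 1 with a prior count of 0.5 and 1 with length corrected (WNT11 both times) and 3 without a filter (EPHB2, NOTUM and WNT11). Between the methionine-free replicates it was 1 and became 0 with length corrected. Among single genes 10 of 295 values changed sign, none of them called. With library totals this was MYC in methionine-free against normal food (−0.02), and with length corrected MYC there (−0.10) and, for methionine omission averaged, RNF43 (0.05) and MYC (−0.03). Without replicate 1 or 2 of the methionine-free libraries, the values for methionine-free against normal food ran from −0.14 to 0.29 for ZNRF3 (lower without replicate 1), from −0.03 to 0.14 for MYC and from −0.78 to 0.19 for BCL9. BCL9 in the combined omission against methionine-free food ran from −0.03 to 0.93, RNF43 in tryptophan/niacin-free against methionine-free food from −0.08 to 0.51, and RNF43 for methionine omission averaged from −0.18 to 0.12. The cause was not tested. Over all genes, methionine-free against normal food had 23 calls by edgeR, 1 by DESeq2 and 2 with length corrected, and the combined omission against methionine-free food had 3, 0 and 0, with 9 by limma-voom and 6 with library totals. Scaling by library totals moved the median of all genes between the replicates by over 0.1, to −0.10. Without a methionine-free replicate no residual degree of freedom was left, so those are values with no test. No paired analysis was possible because 3 of the 4 foods had 1 library and replicate numbers were given in accession order. Depth limits NKD1, LGR5 and ASCL2 most.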
